A study of Mus musculus with 6 samples.

Results

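The genes described here are a set of Slc39 zinc and manganese importers, 10 of the 46603 genes in the count tables, taken by symbol: Slc39a1, Slc39a4, Slc39a6, Slc39a7, Slc39a8, Slc39a10, Slc39a13, Slc39a14, and the loci RP24-349N15.4 and RP24-349N15.5, which lie inside Slc39a8. The set was proposed with results of these data in view, because Slc39a8 was lower in knockout libraries. Differences between the genotypes in these 10 are therefore given as a description, with no p-value. Where a member is said to pass or miss the edgeR threshold, this too only describes the fit over all genes. It is no test of that member, because the set was chosen with these values in view. All 10 passed the filter on low counts. Genes outside the set were tested.

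The Slc39 genes encode ZIP proteins, carriers that move zinc, and in some cases manganese, iron or cadmium, into the cytosol from outside the cell or from organelles. The Slc30 (ZnT) proteins move zinc the other way, and metallothioneins bind the metal in the cytosol. ZIP8 and ZIP14 are close relatives that carry manganese besides zinc, and enamel epithelium uses zinc in enzymes such as the matrix protease MMP20 and tissue-nonspecific alkaline phosphatase.

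RNA came from primary enamel organ cells of the lower incisors of C57BL/6 mice, as 3 wild-type libraries (WT 1, 2 and 3) and 3 Stim1/2 knockout libraries (DKO 1, 3 and 4), with 18609759 to 22829411 counts per library. STIM1 and STIM2 sense the calcium store of the endoplasmic reticulum and gate ORAI channels at the cell surface, and the series title asks what this store-operated calcium entry does for ameloblasts, the enamel-forming cells. The labels give no age, no Cre driver and no count of animals per library, so the spread between libraries may be partly technical. Levels of 1 gene between libraries are in counts per 1e6 (CPM, TMM-scaled), and levels of different genes are compared only in the deposited FPKM, which is per kilobase of transcript.

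Stim1 stood at 414, 492 and 362 CPM in WT 1, 2 and 3 and at 107, 143 and 125 CPM in DKO 1, 3 and 4. Stim2 stood at 229, 310 and 245 CPM in WT and at 105, 136 and 125 CPM in DKO, so both targeted genes matched the labels in every library. The ameloblast markers Ambn and Amelx were at or above 28850 CPM in all 6 libraries. In bulk RNA of this kind, fewer cells of a type and less RNA per cell cannot be told apart. Xist was above 100 CPM in WT 1, WT 2 and DKO 1 and at most 1.22 CPM in the others, so the sexes were mixed unequally between the groups.

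Slc39a8 (ENSMUSG00000053897, GRCm38 chromosome 3, 135825279 to 135888572, plus strand) encodes ZIP8, a carrier of zinc and manganese at the cell surface. It stood at 1602, 625 and 1202 CPM in WT 1, 2 and 3, and at 391, 268 and 281 CPM in DKO 1, 3 and 4. The groups did not overlap, but the WT libraries spread 2.56-fold from lowest to highest, and WT 2 lay closer to DKO 1 than to either other WT library. WT averaged 1143 ± 492 CPM against 313 ± 67.5 CPM in DKO (SD, n = 3 per group), so DKO held 27.4% of the WT level. The log2 fold change was -1.87 (SE 0.33), lower than in all but 81 of the 14721 tested genes. It missed the threshold of the edgeR test, a Benjamini-Hochberg adjusted p below 0.05 over all tested genes. Leaving out WT 2 moved it to -2.16 and past the threshold, and leaving out any other library did not bring it past.

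RP24-349N15.4 and RP24-349N15.5 (ENSMUSG00000106290 and ENSMUSG00000105681) are loci of GENCODE's TEC class, models still to be tested experimentally, and carry the names Gm43429 and Gm43428 in release vM21. They run from 135860348 to 135862598 and from 135872113 to 135875957 on the plus strand of chromosome 3, the strand of Slc39a8. Each is a lone exon that shares 0 bases with the Slc39a8 exons, and both lie in the same intron of 24381 bases. RP24-349N15.4 begins 569 bases after the exon before it, and RP24-349N15.5 ends 8202 bases ahead of the next exon. The last 80 bases of each locus, from GENCODE vM21 transcripts on GRCm38, are shown because they hold the hexamer AATAAA, the core signal for cutting and polyadenylating a transcript, in capitals.
RP24-349N15.4, chr3:135862519-135862598, plus strand: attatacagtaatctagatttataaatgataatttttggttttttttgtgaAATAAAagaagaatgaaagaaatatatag
RP24-349N15.5, chr3:135875878-135875957, plus strand: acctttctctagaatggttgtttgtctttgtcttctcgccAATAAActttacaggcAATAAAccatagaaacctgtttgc
The last AATAAA starts 29 bases from the end of RP24-349N15.4 and 24 bases from the end of RP24-349N15.5. Of 3258 TEC genes in GENCODE vM21, 20.7% hold AATAAA in their last 40 bases, on the transcript strand. A match is a description of the letters and does not show that a transcript ends there.

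RP24-349N15.4 stood at 32.9, 19.3 and 22.1 CPM in WT 1, 2 and 3 and at 7.12, 3.41 and 4.55 CPM in DKO 1, 3 and 4. RP24-349N15.5 stood at 21.9, 10.8 and 19.7 CPM in WT and at 2.86, 2.29 and 2.68 CPM in DKO. The groups of both loci stood apart, and WT 2 was the lowest WT library for each, as for Slc39a8. DKO kept 20.3% of the WT level for RP24-349N15.4 and 14.9% for RP24-349N15.5, with log2 fold changes of -2.30 (SE 0.30) and -2.74 (SE 0.28). Both passed the edgeR threshold. RP24-349N15.4 no longer did without DKO 3, DKO 4 or WT 3 (-2.08, -2.23 and -2.37), nor RP24-349N15.5 without DKO 3 or DKO 4 (-2.66 and -2.76).

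Set against Slc39a8 itself, the intronic loci were scarcer in DKO. Per 1000 Slc39a8 counts, both loci together had 34.2, 48.2 and 34.8 counts in WT 1, 2 and 3 and 25.5, 21.3 and 25.7 in DKO 1, 3 and 4. The WT and DKO ranges did not overlap, which is given as a description only. In CPM, the groups stood apart in 23.3% of all tested genes. RP24-349N15.5 alone had 13.6 to 17.3 counts per 1000 in WT and 7.3 to 9.5 in DKO. Its DKO values rest on few counts, 57, 45 and 50 in DKO 1, 3 and 4. RP24-349N15.4 alone had 18.4 to 30.9 in WT and 12.7 to 18.2 in DKO, ranges that nearly touched. The library kit does not mark strand, and reads of a separate transcript and of unspliced Slc39a8 RNA cannot be told apart here. Summing the counts of all 3 as 1 gene gave a log2 fold change of -1.885, beside -1.867 for Slc39a8 alone. The sum lay narrowly past the threshold and Slc39a8 alone narrowly short of it, so the sum is no added support.

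**Figure D1:**
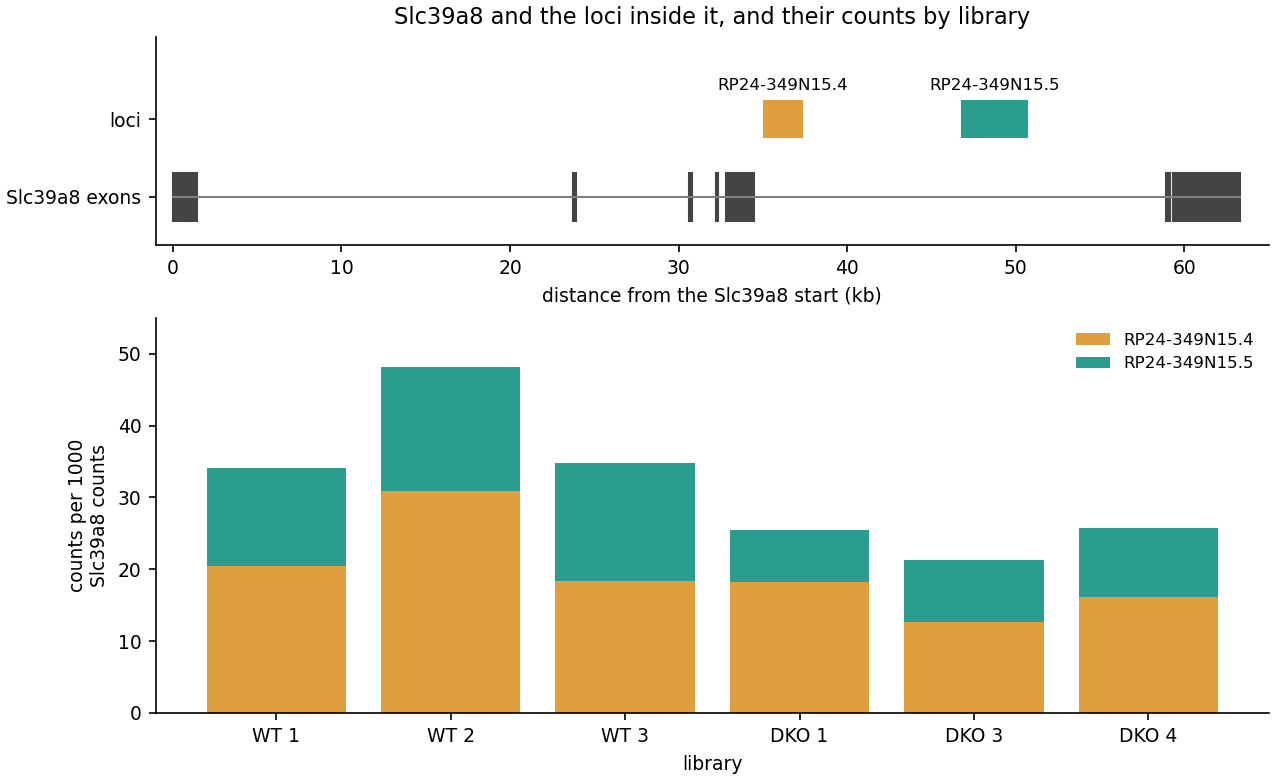
Top, exons of Slc39a8 (dark boxes) and the 2 loci inside it, by distance from the gene's start in kb. Bottom, counts in each locus per 1000 Slc39a8 counts in each library, stacked, where the 3 WT bars reach 34.2 to 48.2 and the 3 DKO bars 21.3 to 25.7.

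Slc39a10 (ENSMUSG00000025986, chromosome 1, 46807544 to 46892852, minus strand) encodes ZIP10, a zinc importer of the plasma membrane. It stood at 259, 212 and 253 CPM in WT 1, 2 and 3 and at 155, 158 and 130 CPM in DKO 1, 3 and 4. The lowest WT library lay above the highest DKO library. Its log2 fold change was -0.71 (SE 0.11), a DKO level of 61.1% of WT, and it passed the edgeR threshold. It held its side of the threshold without WT 2 (-0.80) and lost it without DKO 1, DKO 3, DKO 4, WT 1 or WT 3 (-0.74, -0.76, -0.63, -0.66 and -0.67). A term for the libraries with high Xist also ended the call (-0.71), as did limma on FPKM (-0.75).

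Slc39a6 (ENSMUSG00000024270) encodes ZIP6, the closest relative of ZIP10 and its partner in a joint complex. It stood at 295, 248 and 237 CPM in WT and at 219, 241 and 232 CPM in DKO. The groups overlapped through WT 3, and the log2 fold change was -0.17 (SE 0.10).

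Slc39a14 (ENSMUSG00000022094, chromosome 14, 70303469 to 70351425, minus strand) encodes ZIP14, which like ZIP8 carries manganese, iron and zinc. Its order of libraries differed from that of Slc39a8, as it stood at 321, 408 and 326 CPM in WT 1, 2 and 3 and at 370, 439 and 397 CPM in DKO 1, 3 and 4. WT 2, the WT library lowest in Slc39a8, was the highest in Slc39a14 and lay within the DKO range. The log2 fold change was 0.19 (SE 0.12).

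Slc39a1 (ENSMUSG00000052310), a widely expressed zinc importer of the plasma membrane, stood at 162, 143 and 165 CPM in WT and at 166, 169 and 167 CPM in DKO. All DKO libraries lay above all WT libraries, by a margin as small as that between 165 and 166 CPM. Its pseudogene Slc39a1-ps had 0 counts in every library but 4.40 to 6.30 FPKM, so how reads common to both were divided is uncertain. Slc39a4 (ENSMUSG00000063354), which takes up zinc from food in the gut, was rare, at 5.23 to 6.28 CPM in WT and 6.52 to 6.67 CPM in DKO. Slc39a13 (ENSMUSG00000002105) encodes ZIP13, a zinc carrier of the Golgi region whose loss disturbs connective tissue and teeth. It stood at 54.9, 64.7 and 65.4 CPM in WT and at 62.5, 65.1 and 66.2 CPM in DKO, overlapping groups. Log2 fold changes were 0.10 (SE 0.08) for Slc39a1, 0.16 (SE 0.14) for Slc39a4 and 0.07 (SE 0.08) for Slc39a13.

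Slc39a7 (ENSMUSG00000024327, chromosome 17, 34028269 to 34031682, minus strand) encodes ZIP7, which releases zinc from the endoplasmic reticulum and Golgi. Its deposited count and FPKM tables give different pictures. The count tables held only 25 to 47 counts per library, or 1.21 to 2.26 CPM, while its FPKM was 66.6, 69.0 and 74.4 in WT and 78.8, 77.2 and 76.7 in DKO. That is 46.3 FPKM per CPM in WT, against 0.205 to 0.559 for the other Slc39 genes of the set. In GENCODE vM21, 80.7% of the exonic bases of Slc39a7 are shared with Gm20427, a gene model on the same strand that had at most 1 count in a library. How the authors counted reads that lie in 2 genes is not given in the sources used here, and the part of this overlap in the low counts was not tested. On counts the groups overlapped, with a log2 fold change of 0.26 (SE 0.31). On FPKM the DKO libraries all lay above the WT libraries, with a difference of 0.15 on the log2(FPKM + 1) scale.

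**Figure D2:**
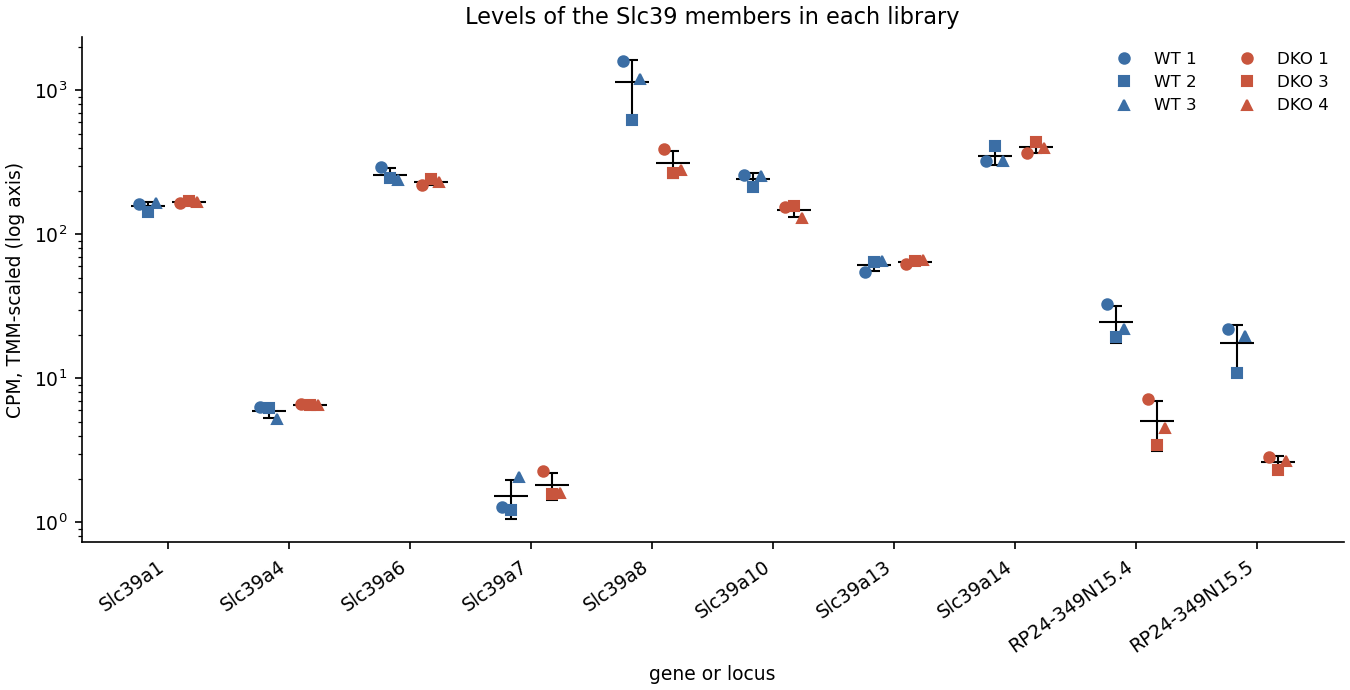
TMM-scaled CPM (log axis) of the 8 Slc39 genes and 2 loci. Points are libraries, coloured by genotype, and black marks are the mean and SD of 3 libraries. Slc39a8, Slc39a10 and both loci have every DKO point below every WT point, and Slc39a7 sits near the bottom because its counts, unlike its FPKM, were low.

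Of the 10 genes and loci, 3 passed the edgeR threshold, all lower in DKO: Slc39a10 and the 2 loci. Over all tested genes 1.04% passed, 0.306% lower and 0.734% higher in DKO. The balance of all calls turned over without WT 2, from 108 higher and 45 lower to 124 higher and 211 lower. The groups stood apart in 6 of the 10, with DKO lower in 4 and higher in 2. Over all tested genes they stood apart in 23.3%, with DKO lower in 11.8% and higher in 11.4%. Since the set was chosen on this contrast, and the 2 loci lie within Slc39a8, nothing is read from these shares. The median log2 fold change of the 10 was -0.05, beside -0.007 over all tested genes.

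Slc39a8 was the most abundant Slc39 transcript in all 3 WT libraries per length, at 461, 177 and 345 FPKM in WT 1, 2 and 3. It made up 50.1%, 27.3% and 43.2% of the summed FPKM of the 14 Slc39 genes. In DKO it stood at 114, 73.9 and 81.2 FPKM, 12.5% to 18.8% of the sum, and ranked 1, 4 and 2 in DKO 1, 3 and 4. After Slc39a8 in WT came Slc39a14 at 86.9 ± 9.67 FPKM (SD, n = 3), then Slc39a6, Slc39a7 and Slc39a1 at 70.5 ± 8.94, 70.0 ± 3.97 and 67.4 ± 6.27 FPKM. The last 3 did not differ beyond their spread. Slc39a10 followed at 49.5 ± 5.83, Slc39a13 at 34.4 ± 4.12 and Slc39a4, near the end, at 2.57 ± 0.233 FPKM. In DKO, Slc39a14 at 95.1 ± 6.36 and Slc39a8 at 89.5 ± 21.1 FPKM overlapped at the top of the order. They were followed by Slc39a7 at 77.5 ± 1.11 and Slc39a2, outside the set, at 76.1 ± 11.7 FPKM, which overlapped. Slc39a1 at 71.8 ± 1.39 and Slc39a6 at 62.2 ± 2.69 FPKM came next. Slc39a13 at 35.6 ± 0.953 then stood above Slc39a10 at 29.0 ± 3.25 FPKM, the reverse of their order in WT.

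The family's summed FPKM was 920, 646 and 798 in WT 1, 2 and 3 and 605, 593 and 580 in DKO 1, 3 and 4. Without Slc39a8 the sum was 454 to 470 in WT and 491 to 519 in DKO. Slc39a8 thus accounted for the gap between the groups in the summed FPKM, and the rest summed slightly higher in DKO. That rest includes Slc39a2, which averaged 25.8 ± 5.93 FPKM in WT and 76.1 ± 11.7 FPKM in DKO (SD, n = 3). Slc39a2 alone rose by more than the rest as a whole, so the higher sum is not a rise across the family.

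**Figure D3:**
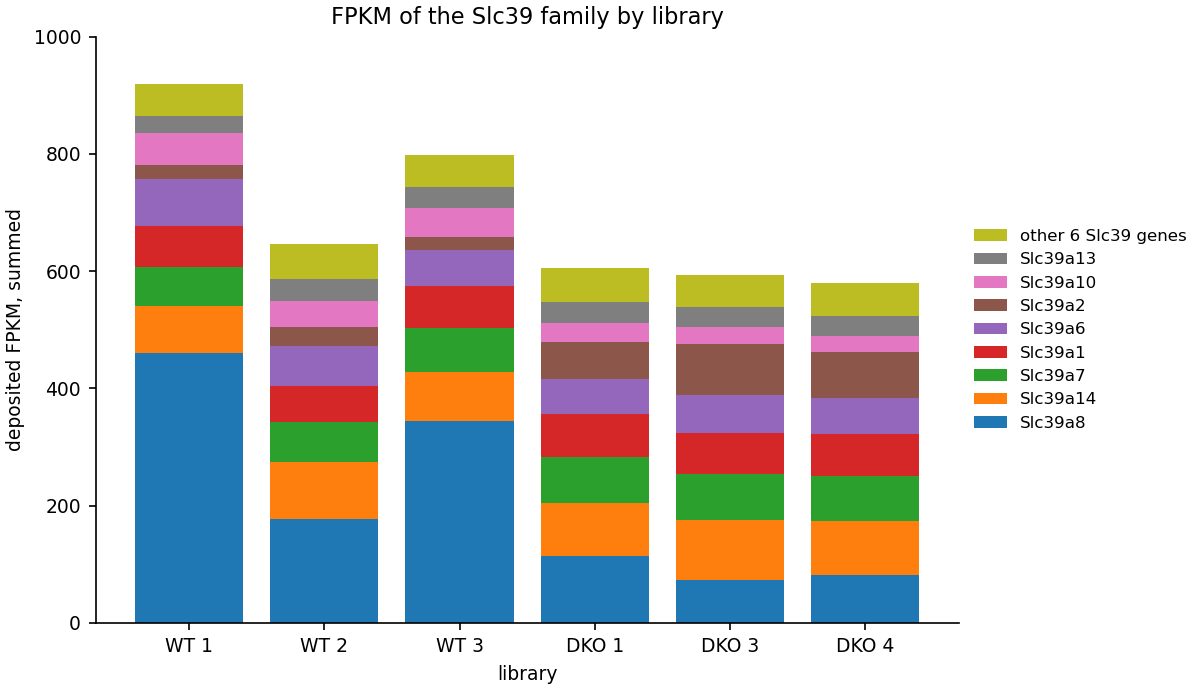
Deposited FPKM of the 14 Slc39 genes stacked by library, with the 6 rarest pooled. The Slc39a8 segment at the base runs from 177 to 461 FPKM in WT and from 73.9 to 114 FPKM in DKO, and the Slc39a2 segment from 21.5 to 32.6 in WT and from 63.4 to 86.4 in DKO.

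Among the 6 Slc39 genes outside the set, 1 rose in DKO, 3 did not pass and 2 were too rare to test. Slc39a2 (ENSMUSG00000072572) encodes ZIP2, a zinc importer known from skin keratinocytes. It stood at 39.4, 56.0 and 36.1 CPM in WT 1, 2 and 3 and at 99.3, 145 and 136 CPM in DKO 1, 3 and 4. The rise was 2.89-fold, WT averaging 43.8 ± 10.7 CPM against 127 ± 24.3 CPM in DKO (SD, n = 3 per group), or 1.53 in log2 with an SE of 0.20 (edgeR adjusted p = 0.0179). WT 2 was the WT library nearest to DKO and DKO 1 the DKO library nearest to WT, the mirror image of Slc39a8. The call of Slc39a2 ended without DKO 3, DKO 4, WT 1 or WT 3 (log2 fold changes 1.42, 1.48, 1.47 and 1.42, edgeR adjusted p from 0.0574 to 0.091). It also ended with a term for the libraries with high Xist (adjusted p = 0.0678), and over all alternatives the adjusted p ran from 4.43e-12 to 0.125. In GENCODE vM21, 4.4% of its exonic bases are shared with Mettl17.

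Slc39a3, Slc39a9 and Slc39a11, carriers of the plasma membrane, the Golgi and intracellular membranes, differed between genotypes by -0.004, 0.01 and 0.07 in log2 and did not pass (edgeR adjusted p of 0.984, 0.960 and 0.743). The sign of the first changed with DESeq2 or upper-quartile scaling and that of Slc39a9 with library totals. Slc39a5 had 8 to 10 counts and Slc39a12 at most 1 count in a library.

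**Figure D4:**
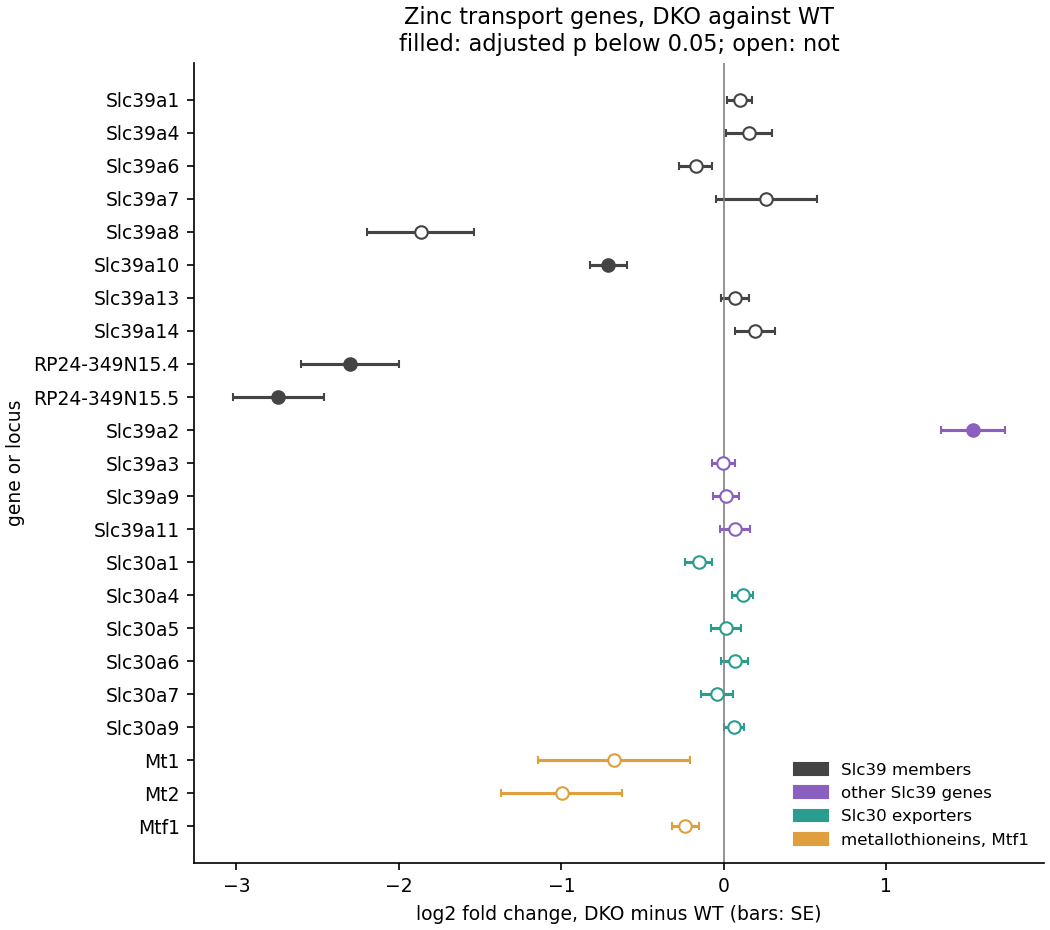
Log2 fold change, DKO minus WT, with its SE, for the tested Slc39 genes and loci, the Slc30 exporters and the metallothionein genes with Mtf1. Filled points had an edgeR adjusted p below 0.05. Slc39a8, at -1.87, is open, and Slc39a2, at 1.53, is the filled point to the right of 0.

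No zinc exporter passed. Of 10 Slc30 genes 6 were tested, with 0 at the edgeR threshold, 0 at an unadjusted p below 0.05, and 0 by DESeq2 or limma. Their log2 fold changes ran from -0.16 to 0.12 with a median of 0.04. Mean levels in WT and then DKO were 89.6 ± 2.23 and 93.5 ± 3.81 CPM for Slc30a9, and 84.0 ± 0.949 and 91.0 ± 4.88 CPM for Slc30a4 (SD, n = 3). Slc30a1, the exporter of the plasma membrane, averaged 60.5 ± 5.22 CPM against 54.3 ± 2.63 CPM. The lowest edgeR adjusted p of the 6 was 0.373. The share of all tested genes at an unadjusted p below 0.05 is not given here. Counts at that p are therefore not read as a result in any list. Over all genes DESeq2 called 826 of the 25264 with a count, and limma on log2(FPKM + 1) called 77 of 13336. DESeq2 can leave rare genes without an adjusted p, so its share among genes eligible for a call may be higher.

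Metallothionein RNA varied widely among WT libraries. Mt2 stood at 212, 67.0 and 155 CPM in WT 1, 2 and 3 and at 83.9, 55.9 and 77.0 CPM in DKO 1, 3 and 4, a difference of -0.999 in log2 with an SE of 0.37 (edgeR adjusted p = 0.219). WT 2 lay inside the DKO range, and without it Mt2 passed (-1.34, adjusted p = 0.0229). Over all its alternatives the adjusted p of Mt2 ran from 0.0043 to 0.57. Mt1 stood at 419, 188 and 126 CPM in WT and at 219, 151 and 88.5 CPM in DKO, overlapping groups (edgeR adjusted p = 0.496). Mtf1, the zinc-sensing transcription factor that drives metallothionein genes, differed by -0.24 in log2 with an SE of 0.08 (edgeR adjusted p = 0.196). All 3 tested genes of this list had negative log2 fold changes and 0 passed by edgeR, DESeq2 or limma, with 2, Mt2 and Mtf1, at an unadjusted edgeR p below 0.05.

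Of 9 tested genes for manganese and divalent metal transport 0 passed the edgeR threshold. Slc40a1 was the only 1 with an unadjusted p below 0.05 or a call by DESeq2, and limma called 0. Slc40a1, the iron exporter ferroportin, which can also export manganese, stood at 1813, 97.5 and 2631 CPM in WT 1, 2 and 3 and at 27.2, 10.8 and 35.7 CPM in DKO 1, 3 and 4. WT 2 was again the WT library nearest to DKO. Slc40a1 missed the threshold (edgeR adjusted p = 0.0622) and passed without WT 2 (0.00267), and its adjusted p ran from 2.92e-05 to 0.294 over all alternatives. The channel kinase gene Trpm7 (log2 fold change 0.38, SE 0.18), the transferrin receptor gene Tfrc (-0.26, SE 0.17) and the Golgi calcium and manganese pump gene Atp2c1 (0.13, SE 0.12) did not pass (edgeR adjusted p of 0.319, 0.472 and 0.595). The list's median was -0.02.

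Enzymes that use these metals were measured beside the carriers. Of 9 tested manganese enzymes 0 passed by edgeR, DESeq2 or limma and 1, Xylt1, had an unadjusted edgeR p below 0.05. Their median log2 fold change was 0.13. Mitochondrial superoxide dismutase Sod2 averaged 120 ± 11.4 CPM in WT against 121 ± 5.02 CPM in DKO. Glutamine synthetase Glul averaged 653 ± 84.6 CPM against 551 ± 52.0 CPM (SD, n = 3). Of 10 zinc enzymes 1 rose, the secreted carbonic anhydrase Car6, which averaged 370 ± 26.1 CPM in WT against 568 ± 24.4 CPM in DKO. Its edgeR adjusted p was 0.0351, and ran from 5.43e-09 to 0.15 over all alternatives. Leaving out any 1 library but WT 2 ended its call. Of the 10, 5 had an unadjusted edgeR p below 0.05: Alpl, Car12, Car2, Car6 and Mmp14. Such p-values were common over all genes, as Alpl, at an unadjusted p of 0.0457, had an edgeR adjusted p of 0.265. The other 9 also had log2 fold changes above 0, as had 7145 of all 14721 tested genes. These 9 did not pass with edgeR, while DESeq2 called Mmp14 too. Among these were alkaline phosphatase Alpl (0.49, SE 0.21), the membrane protease Mmp14 (0.33, SE 0.10), and Mmp20 (0.12, SE 0.28).

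Genes whose log2 CPM followed Slc39a8 most closely over the 6 libraries were sought among 12136 genes with a mean of at least 50 counts. The 5 with the highest Pearson r were the neural adhesion gene Chl1 (r = 0.997), Lad1, a protein of the epithelial basement membrane anchorage (0.994), the predicted gene Gm17660 (0.994), the BMP co-receptor gene Rgma (0.994) and the adhesion adaptor gene Sorbs3 (0.994). The 6 libraries share the split into genotypes, which alone gives high values, so r is a description. Chl1 stood at 29.1, 9.31 and 21.3 CPM in WT 1, 2 and 3 and at 6.17, 4.48 and 4.71 CPM in DKO 1, 3 and 4. As with Slc39a8, the edgeR threshold was missed by all 5 (adjusted p from 0.0641 to 0.0959), and all 5 passed without WT 2. Within the family and lists, r with Slc39a8 was 0.953 for Slc39a10, 0.899 for Mt2, 0.961 for Slc40a1, -0.866 for Slc39a14 and -0.973 for Slc39a2. Other genes followed it less, with r of 0.585 for Mt1, -0.256 for Slc39a1, -0.023 for Slc39a3 and 0.279 for Tfrc.

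**Figure D5:**
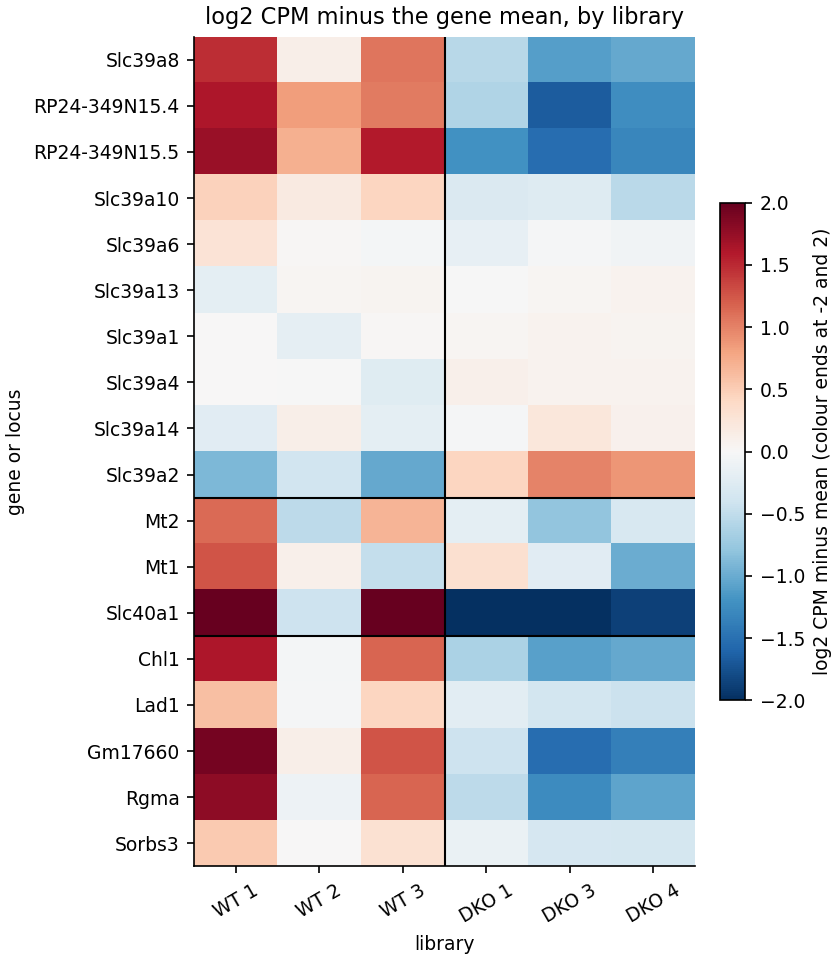
Colour gives log2 CPM minus the gene's mean over the 6 libraries, for the Slc39 genes and loci (top block, with Slc39a2), Mt2, Mt1 and Slc40a1 (middle) and the 5 genes most like Slc39a8 (bottom). WT 2 is paler than WT 1 and WT 3 in the Slc39a8 row, where its level was 625 against 1602 and 1202 CPM. Slc39a7 is left out for its low counts.

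Markers of other cells were read in the same libraries, and the lists did not all follow Slc39a8. Of 6 tested oral keratinocyte genes all 6 were lower in DKO and 1, Krt6a, fell (edgeR adjusted p = 0.0216). Of the 6, 5 had an unadjusted p below 0.05, DESeq2 called 3 (Krt10, Krt16 and Krt6a) and limma called 1. All 8 genes on the list summed to 261 to 462 CPM in WT and 71.2 to 124 CPM in DKO, lowest among WT in WT 2. Krt6a made up most of that sum, at 418, 230 and 336 CPM in WT 1, 2 and 3. Krt6a, Krt6b and Krt16 were lowest among WT in WT 2, as was Slc39a8. Krt13 and Lor were lowest in WT 1 and Krt10 in WT 3, so the list did not share 1 order of libraries. Of 6 dental epithelium genes 5 were lower, with sums of 9140 to 10550 CPM in WT and 7197 to 7555 in DKO. By edgeR 0 of the 6 passed, with 4 at an unadjusted p below 0.05, DESeq2 called 2 and limma called 0. The call of Krt6a ended without DKO 3, DKO 4 or WT 3 (log2 fold changes from -2.16 to -1.73 over all libraries left out in turn). It also ended with the Xist term (edgeR adjusted p = 0.0563, and from 9.05e-14 to 0.182 over all alternatives). All 8 leukocyte, 7 endothelium and 8 mesenchyme genes had log2 fold changes above 0, with medians of 0.51, 0.29 and 0.34. Of all 14721 tested genes, 7145 lay above 0 and 7538 below. Markers of 1 cell type can move together, so the signs within a list are not independent. By edgeR 0 of them passed, with 6, 2 and 0 at an unadjusted p below 0.05, DESeq2 called 3, 1 and 0, and limma called 0. Unadjusted p-values below 0.05 were common over all genes. Counts at that p are therefore not read as a result in any marker list. Their sums were lowest in WT 2, at 129, 174 and 6790 CPM. The 7 ameloblast genes summed to 95830, 162000 and 128500 CPM in WT 1, 2 and 3 and to 137400, 205100 and 141500 CPM in DKO 1, 3 and 4. Among the WT libraries the order of that sum, most of it Amelx and Ambn, was the reverse of that of Slc39a8. Odam did not share it, at 19410, 13430 and 13210 CPM in WT 1, 2 and 3. Of the 7, 6 had log2 fold changes above 0 and 1, Odam, below (-0.47). By edgeR 0 passed, with 2 (Amtn and Klk4) at an unadjusted p below 0.05, DESeq2 called Amtn and limma called 0. The part of any of these in the levels of the Slc39 genes was not tested.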

How the data were processed

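The deposited counts are whole numbers per Ensembl gene, 1 table for each library, and the deposited FPKM values come from gene-level tracking output, per the file headers. The submitters' processing notes name Trimmomatic 0.32, Cufflinks 2.2, HTSeq and the GRCm38 build, with no role or order. The sources used here do not give the aligner, annotation release, counting mode or strand setting. Libraries were made from total RNA with TruSeq RNA v2, per the labels' protocols, a kit that does not mark strand. Rows naming no gene numbered 0. Members were matched by symbol in the FPKM tables. Positions came from GENCODE vM21 (GRCm38) and promoter windows from RefSeq (GRCm38.p6).

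The genotypes were compared on the counts with edgeR 4.0.16 in R 4.3.3 (glmQLFit and glmQLFTest), with TMM scaling, filterByExpr and no covariate. Adjusted p-values are Benjamini-Hochberg over 14721 genes, with a threshold of 0.05. An SE is the log2 fold change over the square root of F. The fit was first tested on simulated counts. With at least 18609759 counts in each library, counting error was small except for rare genes, and 3 libraries per group set the precision. Every 2 libraries of a group differed beyond sampling noise (chi-square per degree of freedom at least 14.1).

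The members, the lists and the alternatives were chosen with earlier results of these data known. Named genes are the members, the other Slc39 genes, Stim1 and Stim2, called members and up to 4 of the most abundant members of the lists of zinc exporters, metallothioneins, manganese transport, manganese enzymes and zinc enzymes, and the 5 genes most correlated with Slc39a8. The 500000-base window around Slc39a8, the motifs, and the marker, pseudogene and overlapping genes that are named were chosen after values were seen. A gene of the dental epithelium list is not reported here and was left out of that list's counts and sums. Of the other marker lists, stratum intermedium and papillary layer, erythroid and skeletal muscle had medians of -0.07, -0.22 and -0.79, with 0 members passing by edgeR, 2, 0 and 0 at an unadjusted p below 0.05, and 2, 0 and 0 by DESeq2.

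Alternatives were DESeq2 size factors, library totals, upper-quartile scaling, all genes with a count kept, a floor of 50 mean counts, the DESeq2 1.42.0 Wald test, the replicate number as a block, a covariate marking Xist levels over 100 CPM, each library left out, Slc39a8 summed with its 2 loci, and limma-trend 3.58.1 on FPKM with a pseudocount of 1 or 0.1 before log2, for genes at 1 FPKM or more in at least 3 libraries or for all genes above 0. The FPKM tests left out 9 genes with a failed estimate and 49 with repeated rows.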

Additional observations from a re-analysis of the deposited data

How the results depend on the processing

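Over all genes, 153 passed the edgeR threshold. The number was 554 with rare genes kept in, 826 under DESeq2, 71 with the Xist term, 77 by limma on log2(FPKM + 1) or on log2(FPKM + 0.1), 11 by limma on all genes above 0, and from 21 to 335 when 1 library was left out. Of the 10 members 3 passed; 0 passed by limma on all genes above 0, and from 0 (without DKO 3 or DKO 4) to 4 (without WT 2) when 1 library was left out. The log2 fold change of Slc39a8 was -1.87 and kept its sign in all 18 alternatives. It passed the threshold with library totals (-1.92), with rare genes kept in (-1.86) and by DESeq2 (-1.86). Summed with its loci (-1.885) it passed only narrowly. With 1 library left out it ran from -2.16 to -1.54, passing without WT 2 alone. The replicate numbers shared by the groups are 1 and 3, and the deviations of those library pairs correlated at 0.189 and 0.000, so the numbers are not taken to pair libraries. With the replicate block, which leaves DKO 4 and WT 2 without a partner, 328 genes (132 higher and 196 lower in DKO) and 4 members passed and Slc39a8 stood at -2.10.

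Values near 0 changed sign: Slc39a3 stood at 0.001 with DESeq2 size factors and with rare genes kept in, 0.019 with upper-quartile scaling, 0.004 by DESeq2 and from -0.034 to 0.043 with 1 library left out. Slc39a9 stood at -0.037 with library totals and from -0.034 to 0.082 with 1 library left out, and Slc39a13 from -0.006 to 0.117. The causes were not tested. Library totals moved the median log2 fold change of all genes from -0.007 to -0.056. Depth limits Slc39a5 and Slc39a12.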

Other observations

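Of the genes within 500000 bases of Slc39a8 on chromosome 3, 7 outside the set were tested, all of them before its start. Genes after its end, Bank1 included, were too rare to test, so that side is not covered. By edgeR 0 passed the threshold and 0 had an unadjusted p below 0.05, and DESeq2 and limma called 0, with log2 fold changes from -0.20 to 0.19 and a lowest adjusted p of 0.289. The nearest tested gene, Nfkb1, a subunit of the NF-kappaB transcription factor, ends 133732 bases before the start of Slc39a8. It stood at 115, 112 and 118 CPM in WT and at 104, 106 and 104 CPM in DKO, with a log2 fold change of -0.13 (SE 0.06). The antisense locus RP24-349N15.3, in another intron of Slc39a8, had at most 0.255 CPM.

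The 250 bases before the first RefSeq start of Slc39a8 (GRCm38.p6, chr3:135825029-135825278, plus strand) are shown because a metal response element, the site that MTF1 binds in metallothionein promoters, was searched for there. A match, as TGCACNC or TGCGCNC on either strand, would stand in capitals.
Slc39a8: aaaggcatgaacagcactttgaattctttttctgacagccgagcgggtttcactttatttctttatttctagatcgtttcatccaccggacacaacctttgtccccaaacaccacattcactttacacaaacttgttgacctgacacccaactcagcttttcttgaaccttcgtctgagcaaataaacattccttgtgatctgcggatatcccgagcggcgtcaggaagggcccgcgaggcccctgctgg
This window held 0 matches, and the window of a RefSeq start further into the gene held 1. Of 32851 RefSeq starts 21.4% held a match in the 250 bases before them, the length searched for every gene named here. The window of Mt2 held 3 and that of Mt1 held 1, Slc30a1 had 1, and Slc39a2 and both windows of Slc39a10 had 0. The absence of these letters in a window says nothing of binding by the factor.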
